A study of Homo sapiens with 30 samples.

Results

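The OTX2 locus was described from the open chromatin of H1 human embryonic stem cells on their way to neural cells. OTX2 lies on the minus strand at chr14:56799905-56810479 (GRCh38), so larger coordinates are upstream of it, and its window reached 300 kb to each side, chr14:56499905-57110479. Peaks of 10 peak lists were merged wherever they overlapped by at least 1 bp, which gave 493444 regions on chromosomes 1 to 22, X and Y. Of these, 140 lay in the OTX2 window, and 121 of the 140 were distal, meaning more than 1 kb from the end of any annotated gene. A list was called open at a region when at least 1 of its peaks lay there.

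OTX2 encodes a homeodomain transcription factor that is required to form the forebrain and midbrain. It is already active in pluripotent cells and the epiblast, is kept on in the anterior neural plate, and is shut off in the hindbrain, where GBX2 takes over at the boundary between midbrain and hindbrain. In the mouse, separate distal enhancers on both sides of the gene drive it at different times and in different parts of the anterior embryo.

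The study asked how 2 neural ectoderm populations contribute to the brain. All groups were wild-type H1 cells, an established embryonic stem cell line, and OmniATAC-seq, in which a transposase cuts accessible DNA of isolated nuclei, was run on 50000 cells of each of 3 biological replicates in 10 groups, 30 libraries in all. The files gave 1 peak list per group, with positions only, so every group had 1 value. The groups were undifferentiated cells at day 0 (hPSC), definitive ectoderm at day 1 (DE) after A8301, Trametinib, C59 and LDN193189, and from there, at day 2, anterior neural ectoderm (aNE) after A8301, LDN193189 and C59 or posterior neural ectoderm (pNE) after A8301, LDN193189, XAV939, the retinoid TTNPB at 50 nM and FGF2 at 20 ng/mL. Both day 2 media held Thiazovivin. From each day 2 population, cells were taken to day 4 in telencephalon, midbrain or hindbrain medium, giving aNE_T, aNE_M, aNE_H, pNE_T, pNE_M and pNE_H. The day 2 populations were plated at 37500 cells per square cm. Cells kept beyond day 2 were plated at 75000 per square cm in the anterior and at 150000 in the posterior protocol. Density thus followed origin at day 4 and also changed from day 2 to day 4.

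The annotation places OTX2 starts at an outer position, the end of the gene, and at an inner one, and an antisense long noncoding RNA, OTX2-AS1 (chr14:56812006-56931308, plus strand), begins just upstream of the outer start. The 250 bases before these 3 starts are shown because peaks covered them differently between lists, with bases inside a peak of at least 1 list in capitals. They are chr14:56810480-56810729 (minus strand), chr14:56805668-56805917 (minus strand) and chr14:56811756-56812005 (plus strand) of GRCh38.p14, taken from RefSeq.
OTX2 outer start: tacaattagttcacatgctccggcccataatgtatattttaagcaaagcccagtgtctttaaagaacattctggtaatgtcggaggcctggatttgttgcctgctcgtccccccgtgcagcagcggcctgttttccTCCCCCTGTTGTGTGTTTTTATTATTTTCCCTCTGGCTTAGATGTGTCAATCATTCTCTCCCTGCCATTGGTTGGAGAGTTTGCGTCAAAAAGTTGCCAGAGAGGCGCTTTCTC
OTX2 inner start: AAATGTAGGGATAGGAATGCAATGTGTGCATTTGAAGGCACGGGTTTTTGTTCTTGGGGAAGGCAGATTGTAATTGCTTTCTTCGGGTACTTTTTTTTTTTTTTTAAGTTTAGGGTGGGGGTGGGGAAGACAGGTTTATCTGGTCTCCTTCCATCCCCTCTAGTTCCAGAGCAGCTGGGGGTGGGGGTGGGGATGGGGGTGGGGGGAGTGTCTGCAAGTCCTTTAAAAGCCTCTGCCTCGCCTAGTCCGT
OTX2-AS1 first start: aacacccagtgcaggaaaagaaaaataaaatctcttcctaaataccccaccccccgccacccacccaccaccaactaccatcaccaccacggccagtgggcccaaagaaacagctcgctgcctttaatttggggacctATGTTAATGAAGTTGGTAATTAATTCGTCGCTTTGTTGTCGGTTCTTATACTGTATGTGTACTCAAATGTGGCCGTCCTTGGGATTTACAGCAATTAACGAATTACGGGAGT
At the outer start 114 of the 250 bases lay in a peak, of the DE list alone. At the inner start all 250 bases lay in a peak of at least 4 lists and of at most 8. At the first OTX2-AS1 start 112 bases lay in a peak of at most 3 lists. GC content was 47.2%, 50% and 46.4%. None of 5 searched motifs, on either strand, was in these windows: TAATCC, bound by OTX and other homeodomain proteins (in 5.62% of 34943 promoter windows), the POU octamer ATGCAAAT (1.63%), the SOX motif CATTGT (9.30%), the nuclear receptor motif AGGTCA (12.1%) and the PBX-HOX motif TGATTGAT (0.418%). OTX2 matched 2 and OTX2-AS1 2 entries of the promoter table. The sequences of distal regions were not used here.

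The lists held 167792 (aNE) to 313095 (pNE_H) peaks on these chromosomes. The narrowest peak was 109 to 115 bp wide in hPSC, DE and the pNE-derived day 4 lists and 122 to 126 bp in aNE, pNE and the aNE-derived day 4 lists. So list making and origin cannot be told apart among the day 4 lists. Nor can list making be told apart from the steps from DE to day 2 and from pNE to day 4. Of 25 marker genes 16 had a promoter in the table. A promoter peak (250 bases before to 50 after a start) at NANOG, a pluripotency factor, was listed in hPSC, DE, aNE, pNE and aNE_T, and at ZFP42, also a pluripotency marker, in all 10 lists. Of the 3 posterior markers in the table, HOXA2 had one in pNE and its 3 descendants alone, HOXB1 in 7 lists (all but the 3 aNE-derived ones of day 4) and EGR2 in all 10. The anterior markers HESX1, RAX and LHX2 and the neural markers SOX2, PAX6 and SOX1 had a promoter peak in all 10 lists. OTX2, also an anterior marker, had one in 8, all but pNE_T and pNE_H. Promoters of TBXT and GATA6 (mesendoderm), FOXD3 (neural crest) and TFAP2A (surface ectoderm) were open in all 10 lists. A site open in fewer cells and one less open in each cell cannot be told apart in these bulk lists.

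Undifferentiated and definitive ectoderm cells had the most peaks around OTX2 for the length of their lists, and the 3 pNE-derived day 4 lists the fewest. The hPSC list had 81 peaks in the window and DE 85, which is 37.9 (95% exact Clopper-Pearson interval 30.1 to 47.1) and 34.3 (27.4 to 42.4) per 100000 peaks of the list. At day 2 both populations stood at 28.0 per 100000, from 47 peaks in aNE (20.6 to 37.2) and 58 in pNE (21.3 to 36.3). At this step the window did not separate the anterior from the posterior population. At day 4 aNE_T had 63 peaks, 31.8 per 100000 (24.5 to 40.7), aNE_M 66, 30.2 (23.3 to 38.4), and aNE_H 63, 30.9 (23.7 to 39.5). The pNE_T list had 47, 21.8 per 100000 (16.1 to 29.0), pNE_M 55, 25.3 (19.0 to 32.9), and pNE_H 65, 20.8 (16.02 to 26.5). No pNE-derived value reached any aNE-derived value, although the intervals of single lists overlapped.

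The mean over media was 31.0 ± 0.834 (SD, n = 3 lists) peaks per 100000 for aNE-derived and 22.6 ± 2.35 (SD, n = 3 lists) for pNE-derived cells, a difference of 8.35. In a two-sided exact permutation test of these 6 lists p = 0.1, the smallest value that 20 assignments of 3 against 3 allow. With only the wider 50% of each list the difference was 6.53 and p = 0.3 in the same exact permutation test, so the origins then no longer separated fully, and in a window of 100 kb each side the difference was 4.13. Intervals here and below cover counting error only, and neighbouring peaks are not independent. Density and list making moved with origin, and their part in the difference was not tested.

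**Figure D1:**
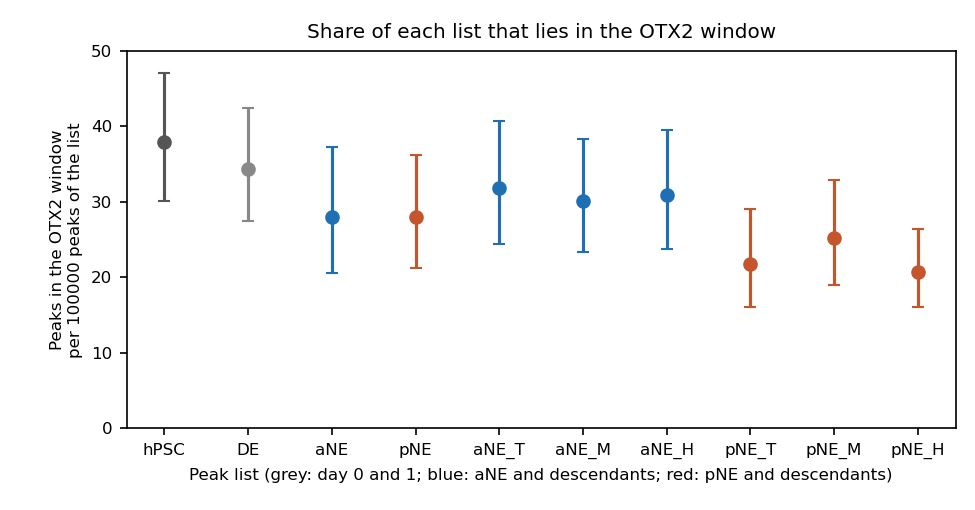
Peaks in the OTX2 window per 100000 peaks of each list (vertical axis), by list; points are single lists and bars the 95% exact binomial interval. The 3 aNE-derived day 4 lists lie at 30.2 to 31.8 and the 3 pNE-derived ones at 20.8 to 25.3.

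At the gene itself, accessibility sat at the inner start and in the gene body, and the widths of both sites varied between lists. The region at the inner start, chr14:56805030-56806184, was open in 9 lists. Its bases in peaks were 842 in hPSC, 723 in DE, 893 in aNE and 458 in pNE. At day 4 they were 873 in aNE_T, 261 in aNE_M, 704 in aNE_H, 0 in pNE_T, 277 in pNE_M and 169 in pNE_H. Telencephalon medium thus gave the widest day 4 opening from aNE and none from pNE. In hPSC, DE, aNE and aNE_T peaks covered all 250 bases printed above for the inner start. Coverage was 78 bases in pNE, 66 in aNE_H, 53 in aNE_M and 16 in pNE_M, and 0 in pNE_T and pNE_H.

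At the inner start the order of the origins depended on medium, with pNE_M slightly wider than aNE_M. A second site inside OTX2 separated the origins in every medium. At chr14:56808255-56809529, 1.6 kb downstream of the outer start, peaks covered 244 bp in hPSC, 0 in DE, 0 in aNE and 303 in pNE. At day 4 they covered 635 bp in aNE_T, 676 in aNE_M and 503 in aNE_H, against 1275 in pNE_T, 969 in pNE_M and 976 in pNE_H. Every pNE-derived value exceeded every aNE-derived one, and the pNE_T value was the highest, in the list where the inner start had no peak. Such an order of the origins is not particular to this site: 7.18% of the 100262 regions open in all 6 day 4 lists had it. The other 4 regions inside the gene were narrow, 116 to 191 bp, and open in 1 or 2 lists. One of these, chr14:56810446-56810593, was the only region over the outer start and was open in DE alone.

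Just upstream of the outer start, 3 regions lay between OTX2 and the beginning of OTX2-AS1. The nearest, chr14:56810942-56811149, was open in DE (134 bp), aNE (125 bp), aNE_H (208 bp) and pNE_H (129 bp), so that at day 4 it followed hindbrain medium from both origins. It kept this pattern in 1 of 5 alternatives. With 500 bp windows or merging within 200 bp it was joined to the next region upstream, and the joined region was open in 8 lists. In lists of equal length it was open in 2 and with the wider 50% in 0. The next, chr14:56811337-56811640, was closed in pNE_T and pNE_M and covered by 145 to 299 bp of peaks in the other 8 lists. The third, chr14:56811894-56812564 over the first OTX2-AS1 start, was open in all 10 lists, with 500 to 671 bp in hPSC, DE and aNE, 362 bp in aNE_T and 116 to 265 bp in the other 6. At this shared promoter region the lists differed in width and not in presence.

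**Figure D2:**
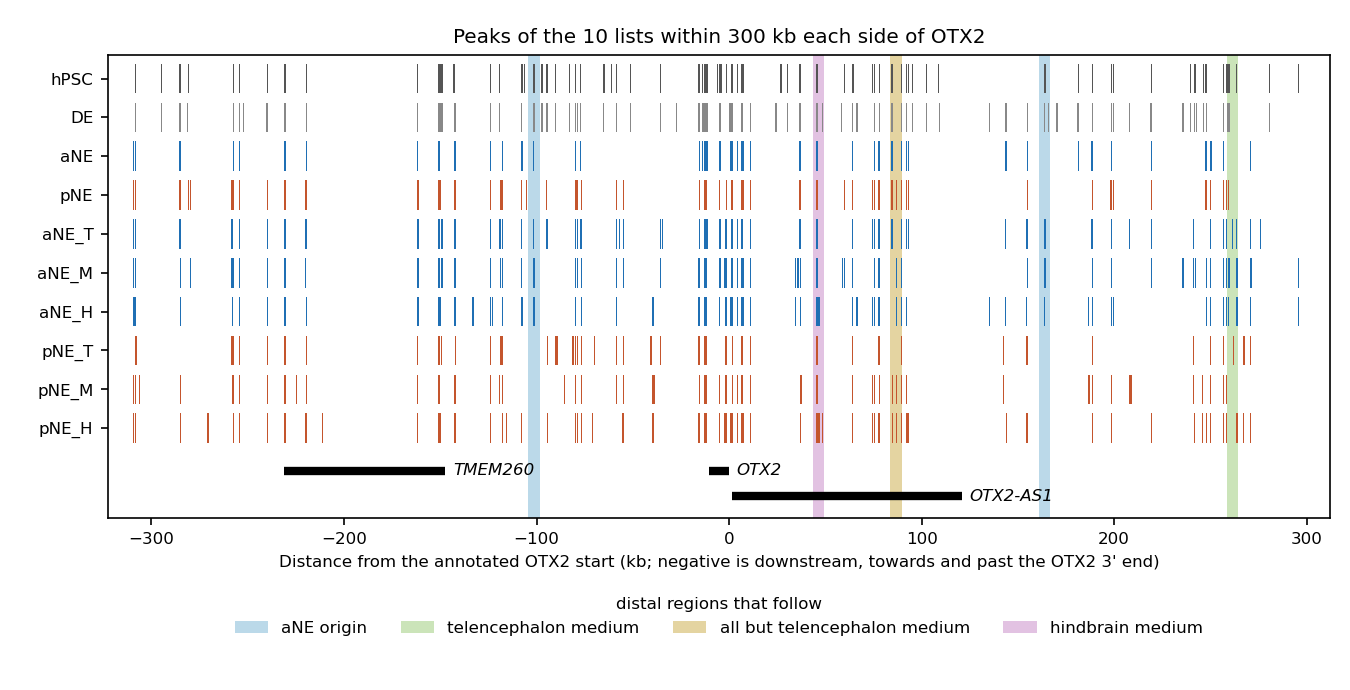
Peaks of the 10 lists (rows) against distance from the annotated outer OTX2 start in kb, with gene bodies below; bands mark the 5 distal regions that followed origin or medium at day 4. The pNE_T row is open at 16 of 73 upstream and 28 of 67 downstream regions, beside 41.3% of all regions. The marked regions lie 46.5 to 261.6 kb away on both sides.

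Among distal regions, 2 of 121 were open in all 3 aNE-derived day 4 lists and in none of the 3 pNE-derived ones, and 0 of 121 showed the reverse. The first is 1.65% (0.201% to 5.84%) of the window's distal regions, beside 0.653% of all distal regions. For the reverse, 3 regions of 121 would be 2.48%, beside 2.42% of all distal regions, so at this size a share like the background was not detectable.

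The region chr14:56708744-56709532 (789 bp) lies 101.3 kb downstream of the outer start, between genes. It was covered over 426 bp in hPSC, 755 in DE and 651 in aNE, and at day 4 over 663 bp with telencephalon, 483 with midbrain and 260 with hindbrain medium. The pNE list and its 3 descendants each had 0 bp there. Opening was therefore listed before the split and in every aNE stage, and was missing from pNE at day 2 onwards. This was the only distal region in the window open in aNE and all its descendants and closed in pNE and all of its own, 1 of 121, or 0.826% (0.0209% to 4.52%), beside 0.104% of all distal regions. The reverse lineage pattern had 0 in the window, beside 0.39% of all distal regions.

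The other aNE-derived region, chr14:56974078-56974463 (386 bp), lies 163.8 kb upstream, inside the long noncoding RNA gene LOC124903323. Peaks covered 113 bp in hPSC, 355 in DE, 127 in aNE_T, 161 in aNE_M and 258 in aNE_H. Both day 2 lists and the 3 pNE-derived lists had 0 bp there. Unlike the first, this region was not listed at day 2. Both counts are small, and with peaks required to cover at least 50% of a region 0 regions followed aNE origin, while 4 did without the pNE_H list.

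Regions that followed medium were as few. In telencephalon medium from both origins, and in no other day 4 list, 1 distal region was open (0.826%, beside 0.655% of all distal regions). This was chr14:57071828-57072279, between genes and 261.6 kb upstream, with 452 bp in aNE_T, 249 bp in pNE_T and 0 in the other 8 lists. Hindbrain medium also had 1 (beside 1.18%), chr14:56856897-56857075, which lies 46.5 kb upstream within OTX2-AS1, with 179 bp in aNE_H, 123 bp in pNE_H and 0 elsewhere. Midbrain medium had 0 (beside 0.199%). Counts of 0 or 1 of 121 have intervals that reach 3.00% and 4.52%, and 3 regions would be 2.48%. At this size they cannot show whether a medium stood apart at the locus.

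In the complement, 1 distal region was open in all day 4 lists but those of telencephalon medium (beside 1.56%), 0 in all but midbrain (0.142%) and 0 in all but hindbrain (0.17%). The region, chr14:56896957-56897607 (651 bp), lies 86.8 kb upstream within OTX2-AS1. Peaks covered 291 bp of it in pNE, 542 in aNE_M, 394 in aNE_H, 167 in pNE_M and 583 in pNE_H, and 0 in hPSC, DE, aNE, aNE_T and pNE_T. Its neighbour at chr14:56894361-56895616, 84.5 kb upstream, showed another order: 979 bp in hPSC, 1256 in DE, 1066 in aNE, 863 in pNE and 787 in aNE_T, 201 in pNE_M and 453 in pNE_H, and 0 in aNE_M, aNE_H and pNE_T. In the aNE lineage the 2 neighbours were never open together.

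**Figure D3:**
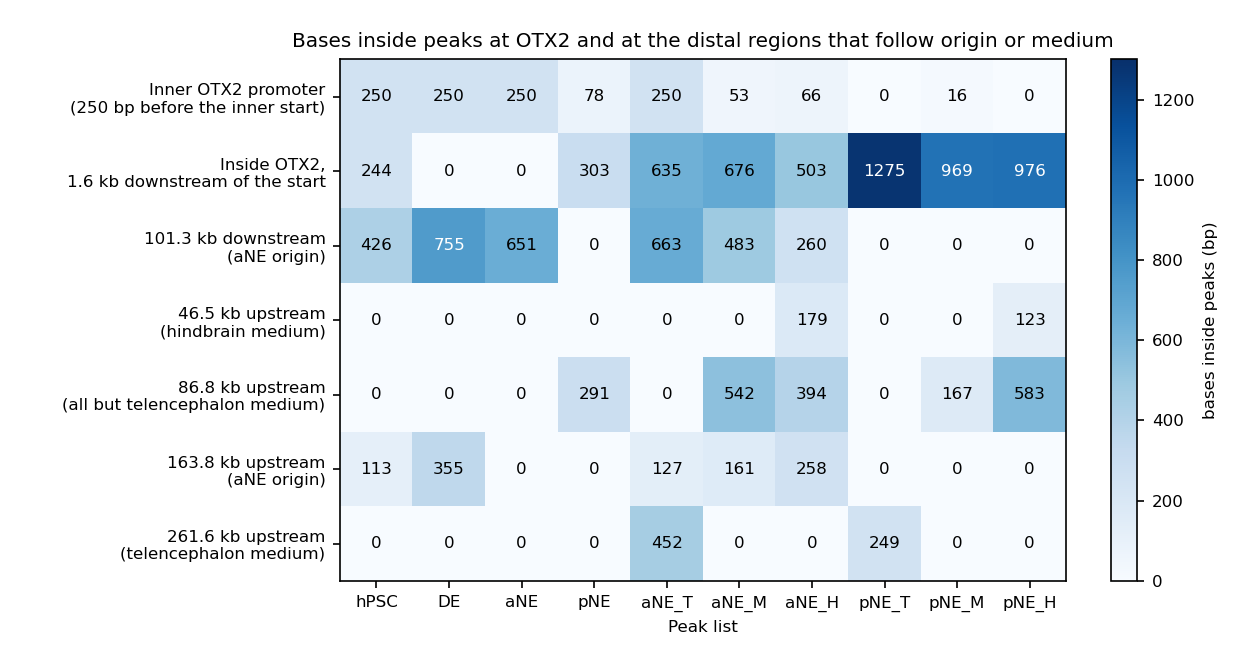
Bases inside peaks (numbers and colour, bp) in each of the 10 lists (columns) at the inner promoter, at a site inside OTX2 and at the 5 distal regions that followed origin or medium (rows). The inner promoter is fully covered in hPSC, DE, aNE and aNE_T, whereas the site inside OTX2 is widest in the 3 pNE-derived lists, at 969 to 1275 bp.

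In telencephalon medium most of the differences between the 2 origins in the window lay in one direction. In aNE_T but not in pNE_T 25 of 140 regions were open, 17.9% (11.9% to 25.2%), beside 10.9% of all regions. In pNE_T but not in aNE_T 7 were open, 5% (2.03% to 10.0%), beside 14.2% of all regions. The window thus leaned towards aNE_T where all regions leaned towards pNE_T. In midbrain medium the counts were 24 (17.1%, beside 13%) and 14 (10%, beside 12.3%). In hindbrain medium they were 13 (9.29%, beside 6.38%) for aNE_H and 16 (11.4%, beside 28.5%) for pNE_H, whose list is the longest. The lead of aNE_T over pNE_T kept its direction under every alternative run.

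Of the 25 regions found in aNE_T but missing from pNE_T, 16 lay upstream of the outer OTX2 start and 9 downstream, and 7 lay inside OTX2-AS1. At least 1 of the hPSC, DE, aNE and pNE lists was open at 22 of them, 15 were open in aNE, and 13 were open in at least 7 of the 10 lists. Most were therefore sites listed earlier and missing from pNE_T, not sites first listed in aNE_T. These counts within the 25 were not made over all regions, so whether the window differs in this is unknown. Of the 7 in the other direction, 5 were open in pNE_T and in no other list, 4 of them 40.7 to 89.2 kb downstream of the start. The pNE_T list was open at 16 of the 73 upstream regions, against 25 for pNE_M, 33 for pNE_H and 30 for aNE_T. Downstream it was open at 28 of 67, against 27, 29 and 32. Of all regions, 41.3% were open in pNE_T, 41.0% in pNE_M, 60.9% in pNE_H and 38.0% in aNE_T. Across the 30 regions within OTX2-AS1, pNE_T was open at 7, of which 6 were open in every list, while the other 9 lists were open at 13 to 21. Those 9 lists were open at 32.0% (aNE) to 60.9% (pNE_H) of all regions.

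Closed in pNE_T and open in all 9 other lists were 5 regions, 3.57% (1.17% to 8.14%), beside 0.827% of all regions. One was the inner start region. The widest of the others, chr14:56846862-56847865 (36.9 kb upstream, within OTX2-AS1), had 957 bp in hPSC, 932 in DE, 1003 in aNE, 901 in pNE, 893 in aNE_T, 229 in aNE_M, 443 in aNE_H, 0 in pNE_T, 147 in pNE_M and 426 in pNE_H. Peaks spanned at least 893 bp of it through day 2 and in aNE_T, and at most 443 bp in the other day 4 lists. The other 3 were chr14:56885886-56886103 (75.5 kb upstream, 151 to 213 bp in the 9 lists), chr14:57008565-57008990 (198.3 kb upstream, 109 to 337 bp) and chr14:56524927-56525647 (285.2 kb downstream, 348 to 714 bp). Lists cut by peak width were merged and counted anew, so regions counted there need not be among these 5. With every list reduced to its 167792 widest peaks 1 region of the window had the pattern, 0.935%, beside 0.825% of all regions. With the wider 50% of each list 3 were left, 4.62%, beside 0.878%.

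At day 2 the aNE list was open at 8 regions where pNE was closed, 5.71% (2.50% to 10.9%), beside 5.54% of all regions. The pNE list was open at 16 where aNE was closed, 11.4% (6.68% to 17.9%), beside 12.7%. Both shares were near those of all regions. With the lists reduced to equal length the counts were 13 (12.1%, beside 10.6%) and 10 (9.35%, beside 10.8%). The order of the counts turned, while the shares of all regions became nearly equal.

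Many regions of the window closed when cells left definitive ectoderm. From hPSC to DE 24 regions were gained (17.1%, beside 15.1%) and 17 lost (12.1%, beside 8.83%). From DE to aNE 43 were lost, 30.7% (23.2% to 39.1%), beside 18.3%, and from DE to pNE also 43, beside 17.7%. Gains at these steps were 6 (4.29%, beside 3.4%) and 14 (10%, beside 9.9%). With only the wider 50% of each list, 7 (10.8%, beside 18.4%) and 9 (13.8%, beside 17.5%) were lost, below the share of all regions. From aNE to aNE_T 21 were gained (15%, beside 10.9%) and 5 lost (3.57%, beside 4.88%). From pNE to pNE_T 13 were gained (9.29%, beside 13.7%) and 23 lost, 16.4% (10.7% to 23.6%), beside 11.6%. In telencephalon medium, gains outnumbered losses from aNE and losses outnumbered gains from pNE. From aNE to aNE_M 24 were gained (17.1%, beside 15.6%) and 8 lost (5.71%, beside 5.88%), and from aNE to aNE_H 19 (13.6%, beside 14.8%) and 6 (4.29%, beside 7.92%). From pNE to pNE_M 13 were gained (9.29%, beside 12.9%) and 15 lost (10.7%, beside 11%). From pNE to pNE_H 17 were gained (12.1%, beside 27.3%) and 9 lost (6.43%, beside 5.53%), so in hindbrain medium gains outnumbered losses from pNE too. The width of the narrowest peak shifted from DE to day 2 and from pNE to day 4, and plating density rose from day 2 to day 4. The part of either in these gains and losses was not tested.

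**Figure D4:**
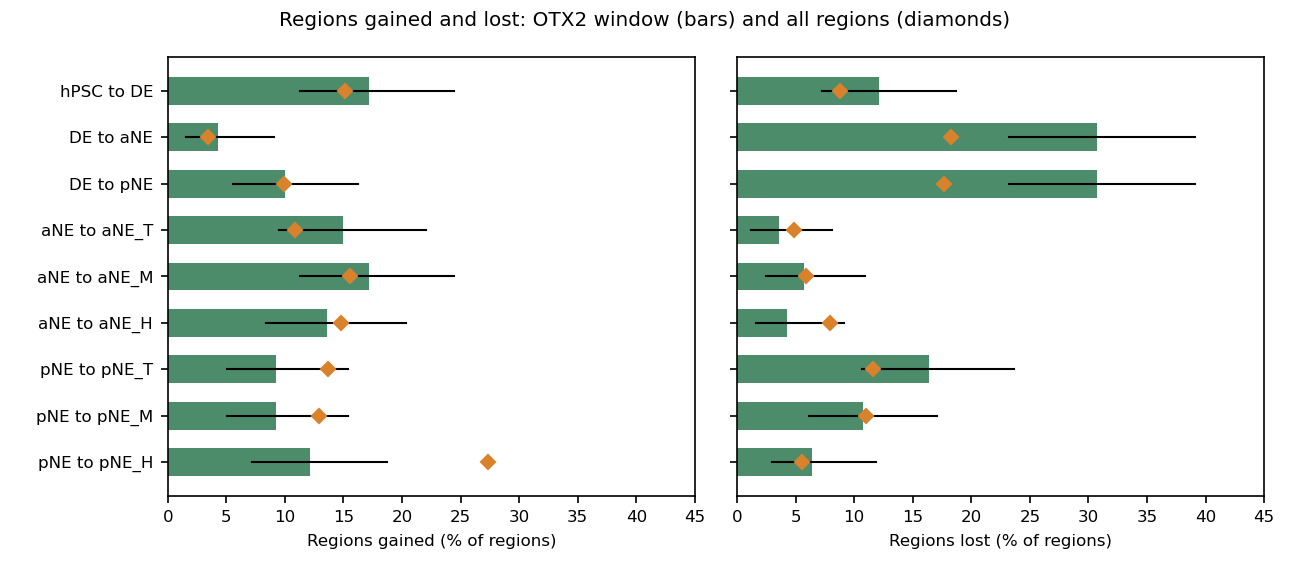
Regions gained (left) and lost (right) at each step, as percent of the 140 regions of the OTX2 window (bars, with 95% exact binomial intervals as lines) and of all 493444 regions (diamonds). Losses from DE to aNE and to pNE, 30.7% each, lie above the 18.3% and 17.7% of all regions.

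A group of 12 regions was open in hPSC and DE and in no later list, 8.57% (4.51% to 14.5%), beside 2.77% of all regions. They lay on both sides of the gene, from 295.1 kb downstream to 280.8 kb upstream. The widest, chr14:56918795-56919593 (108.7 kb upstream, within OTX2-AS1), had 799 bp in hPSC and 160 in DE. Next came chr14:56727153-56727813 (83.0 kb downstream, between genes) with 636 and 252 bp. A further one within OTX2-AS1, chr14:56905296-56905827 (95.1 kb upstream), had 532 and 238 bp, and chr14:57091040-57091539 (280.8 kb upstream) had 440 and 471 bp. Each of the 12 had 0 bp in all 8 lists from day 2 on. The narrowest peak was 113 bp in hPSC and 112 bp in DE, against 125 bp in aNE and 124 bp in pNE. List making may thus differ between these stages, and its part was not tested. With the wider 50% of each list, merged and counted anew, 1 region had this pattern (1.54%, beside 2.73%), below the share of all regions.

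A stable set of 21 regions was open in all 10 lists, 15% (9.53% to 22.01%), beside 16.5% of all regions. At the other end 44 were open in 1 list only, 31.4% (23.9% to 39.8%), beside 33.5%. Median width was 779 bp for regions open in all lists and 161.5 bp for those open in 1, beside 871 and 161 bp over all regions. The widest stable regions flanked the gene. At chr14:56797512-56799336, 12.1 kb downstream of the outer start and past the 3′ end of OTX2, peaks covered 1794 to 1809 bp in DE, aNE and aNE_T and 1190 to 1372 bp in the other 7 lists. At chr14:56816569-56818273, 6.9 kb upstream within OTX2-AS1, they covered 1622 bp in hPSC and 1027 bp in pNE_M, with the other 8 lists at 1182 to 1468 bp. The TMEM260 promoter (chr14:56579338-56580538), the start of the other protein-coding gene of the window, was open in all lists with 872 to 1137 bp.

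Of the 26 regions open in all 6 day 4 lists, 3 were wider in every aNE-derived than in every pNE-derived list (11.5%, beside 6.42% of 100262 such regions). These were chr14:56501876-56502488, chr14:56570219-56570518 and chr14:56648282-56649292, 161.7 to 308.3 kb downstream. In the other direction there were 2 (7.69%, beside 7.18%), the site inside OTX2 described above and chr14:56855801-56856579, 45.7 kb upstream, with 697 to 773 bp in pNE-derived and 646 to 664 bp in aNE-derived lists. These shares were near their backgrounds.

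The same counts were made in 300 kb each side of 19622 protein-coding genes with at least 20 regions. For open regions per 100000 of the list, the aNE-derived mean over the pNE-derived mean was 1.38 at OTX2, where the median gene had 1.11 (quartiles 0.998 and 1.19), and 0.734% of genes had as high a value. The ratio of pNE_T to aNE_T was 0.653 at OTX2 and 0.906 at the median gene, and 0.505% of genes were as low. Regions open in hPSC and DE only numbered 12 at OTX2 and 4 at the median gene (1.21% of genes had as many). OTX2 was ordinary in its regions following aNE origin, 2 against a median of 1 (19.1% of genes had as many), and in the total, 140 against 131. Neighbouring genes share regions, so these percentages describe windows and are not a test.

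A list of 16 genes that act with OTX2 in patterning the anterior brain was set beside it, all matched. They were OTX1, its close relative, GBX2, its hindbrain counterpart, and the forebrain and eye-field factors SIX3, SIX6, HESX1, LHX2, LHX5, FEZF1, FEZF2 and RAX. The others were the midbrain and boundary genes DMBX1, EN1, EN2, PAX2, FGF8 and WNT1. The aNE-derived to pNE-derived ratio of the 16 had a median of 1.17, from 0.910 at FEZF2 to 1.43 at LHX2, the only one of them at or above OTX2. At SIX6 it was 1.29, at OTX1 1.20 and at GBX2 1.11. None of the 16 had as low a pNE_T to aNE_T ratio as OTX2, with LHX2 at 0.685 and SIX6 at 0.748 the nearest and FEZF2 at 1.22 the farthest. None had as many regions closed in pNE_T only (0 to 4, against 5 at OTX2) or open in hPSC and DE only (0 to 10, against 12). The OTX2 counts were 1 and 5 in lists of equal length, and the other genes were not recounted there. OTX1 and GBX2 shared with OTX2 a count of 2 regions following aNE origin and 0 following pNE origin. Neither count was rare: 7 of the 16 and 19.1% of all genes had at least 2 following aNE origin. For pNE origin, 20.9% of all genes had 0.

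**Figure D5:**
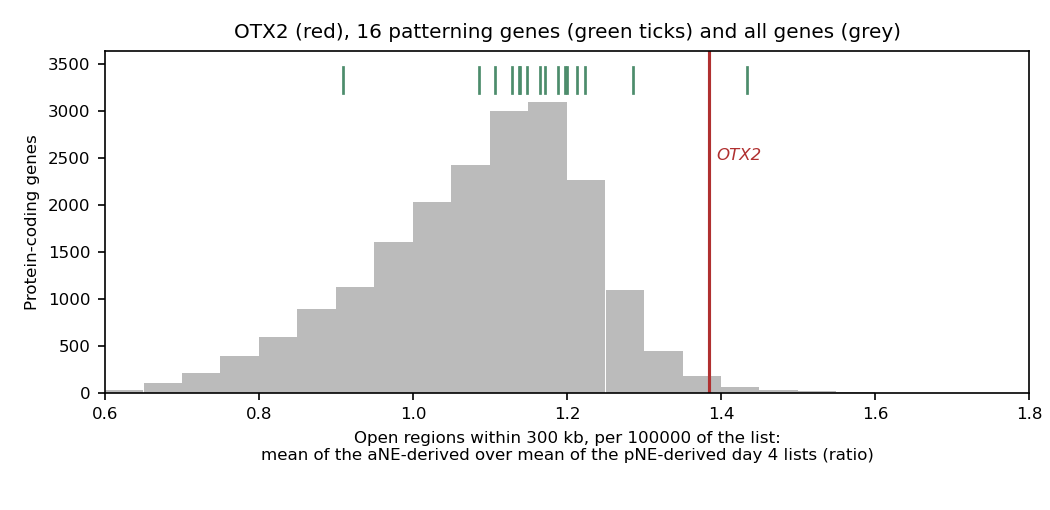
Number of protein-coding genes (vertical axis) by the ratio of aNE-derived to pNE-derived open regions within 300 kb, each per 100000 of its list, drawn from 0.6 to 1.8. OTX2 (red line) lies at 1.38 and the 16 patterning genes (ticks) run from 0.910 to 1.43.

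Over the 10 lists, the number of open regions per 100000 in the OTX2 window was 38.0 in hPSC, 35.9 in DE, 29.2 in aNE and 28.0 in pNE. At day 4 it was 33.0 in aNE_T, 30.1 in aNE_M, 30.8 in aNE_H, 21.6 in pNE_T, 25.7 in pNE_M and 20.6 in pNE_H. The genes with the most similar profile by Pearson's r over these 10 lists, which share list length across genes, were ESYT2 (r = 0.979), PADI6 (0.978), LOC124905375 (0.972), EFCC1 (0.970) and DHRS12 (0.969). Among the 16 patterning genes r ran from -0.225 at FEZF2 to 0.822 at EN2.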

How the data were processed

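OmniATAC-seq of 30 libraries (10 groups of 3 biological replicates) was deposited as 10 peak lists, 1 per group, holding chromosome, start and end alone (3 columns). These deposited positions carry no counts, scores or p-values, so depth is unknown and replicates could not be compared. Per the submitters' processing notes the build was hg38 and the tools included FastQC, Bowtie2, MACS2, bedtools, featureCounts, edgeR and deepTools. How the 3 replicates were combined and the peak threshold are not given in the sources used here. Either could change the number of peaks in a list.

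Autosomal, X and Y peaks were merged over the lists (overlap of at least 1 bp) with Python 3.11.15, pandas 2.3.3, numpy 2.4.6 and scipy 1.17.1. Gene positions and promoter sequences came from RefSeq (GRCh38.p14), which matched OTX2 by symbol. Regions of the OTX2 window were assigned to an origin or medium from presence in the 6 day 4 lists, and shares were set beside those of all regions. The region caller was tested on simulated data of 60000 regions, with 0 wrong calls. Simulated peaks were merged regions with the same bounds in every list, so the merging of partly overlapping peaks was not tested. Intervals are exact Clopper-Pearson at 95% and cover counting error only.

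Named regions are those that follow origin or medium, lie at an OTX2 end or are open in all lists. Others were chosen after their values were seen. Named genes are those of the window, 16 patterning genes and the 5 genes with the highest r. The members and lists were chosen with earlier results of these data known. Alternatives were list length, peak width, the rule for open, merging, window size and leaving out the pNE_H list. Those for regions closed in pNE_T only, open in hPSC and DE only, lost from DE, or differing between aNE_T and pNE_T were added after seeing the data, as was the change from day 2 to day 4.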

Additional observations from a re-analysis of the deposited data

Results flagged for a closer look

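From day 2 to day 4 the number of peaks in the OTX2 window per 100000 of the list moved up in every medium from aNE and down in every medium from pNE. From aNE the change was 3.83 with telencephalon, 2.17 with midbrain and 2.88 with hindbrain medium, with a mean of 2.96 ± 0.834 (SD, n = 3 lists). From pNE they were -6.20 in pNE_T, -2.78 in pNE_M and -7.28 in pNE_H, with a mean of -5.42 ± 2.35 (SD, n = 3 lists). The means differ by 8.38 peaks per 100000. With only the wider 50% of each list the aNE mean change turned to -1.04. This difference was not tested, since each origin shares 1 day 2 list and the intervals of single lists overlap. Plating density rose from 37500 per square cm at day 2 to 75000 in aNE-derived and 150000 in pNE-derived cells. The narrowest peak was 124 bp in pNE and 109 to 115 bp in its day 4 lists. In aNE it was 125 bp, and 122 to 126 bp in its day 4 lists. Origin, density and list making cannot be told apart in these changes, and their parts were not tested.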

How the results depend on the processing

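No paired analysis was possible because the files hold 1 list per group. Of 195 values recomputed under alternatives, 133 stayed within the limits set for them, 61 moved and 1 turned. The share of peaks by origin kept its direction in the 5 alternatives that could change it (differences of 4.13 to 8.54 per 100000); windows of 500 bp left it as it was, since it counts peaks. In an exact permutation test p = 0.1 in each but the wider 50% of peaks, where p = 0.3; without pNE_H the test is of 3 against 2 lists. With the wider 50% the aNE-derived mean minus aNE turned to -1.04. The window held 65 regions with the wider 50%, 70 at 100 kb and 213 at 500 kb. Regions following aNE origin numbered 0 at 50% coverage and with the wider 50%, 1 at 100 kb and with distal set beyond 5 kb, 4 without pNE_H and 7 when 2 of 3 lists sufficed. Regions following pNE origin numbered 2 at 500 kb and 1 with 2 of 3 lists. Telencephalon medium had 3 in lists of equal length, 0 at 100 kb, 2 at 500 kb and 2 without pNE_H. All but telencephalon had 0 at 50% coverage and 2 at 500 kb. Midbrain had 1 with the wider 50%, all but midbrain and all but hindbrain each had 1 at 50% coverage, and hindbrain had 0 in lists of equal length and with the wider 50% and 2 at 500 kb. Counts at day 2, aNE then pNE, were 13 (12.1%, beside 10.6%) and 10 (9.35%, beside 10.8%) in lists of equal length. They were 3 (4.62%, beside 5.47%) and 6 (9.23%, beside 12.8%) with the wider 50%. At 100 kb they were 4 (5.71%, beside 5.54%) and 9 (12.9%, beside 12.7%). Regions closed in pNE_T only numbered 2 at 50% coverage (1.43%, beside 0.566% of all regions) and 1 in lists of equal length (0.935%, beside 0.825%). There were 3 with the wider 50% (4.62%, beside 0.878%) and 3 at 100 kb (4.29%, beside 0.827%). Those open in hPSC and DE only numbered 6, 5, 1 and 6 under the same alternatives. Their shares were 4.29% (beside 3.12%), 4.67% (2.02%), 1.54% (2.73%) and 8.57% (2.77%). Losses from DE to aNE and to pNE were 17 (15.9%, beside 10.5%) and 23 (21.5%, beside 13.7%) in lists of equal length. They were 7 (10.8%, beside 18.4%) and 9 (13.8%, beside 17.5%) with the wider 50%. At 100 kb they were 20 each (28.6%, beside 18.3% and 17.7%). Open in aNE_T and not in pNE_T were 14 regions at 100 kb (20%, beside 10.9%). The reverse count was 4 with the wider 50% (6.15%, beside 14.6%) and 23 at 500 kb (10.8%, beside 14.2%). The causes were not tested. The 2 regions named for aNE origin each kept that pattern in 3 of 6 alternatives, the telencephalon region in 5 of 6, the region open in all but telencephalon in 4 of 6, and the distal hindbrain region in 3 of 5. The hindbrain region next to the outer start kept it in 1 of 5.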
